A study of Mus musculus with 8 samples.

Results

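Myeloperoxidase is the heme enzyme of the primary (azurophil) granules of neutrophils and monocytes, and its gene, Mpo, is one of the early genes of the myeloid lineage. Granule serine proteases are made by the same lineage: Elane encodes neutrophil elastase, Prtn3 proteinase 3 and Ctsg cathepsin G, while Ms4a3 encodes a membrane protein of granulocyte and monocyte progenitors. In the nuclei described here Mpo RNA was captured and RNA of those 4 genes was not. They were selected on raw counts of unique molecular identifiers (UMIs, 1 per captured RNA molecule): at least 4 Mpo UMIs, 0 of Elane, Prtn3, Ctsg and Ms4a3 together, 0 of Dntt (a lymphoid DNA polymerase), Il7r (the interleukin-7 receptor), Car1 (an erythroid carbonic anhydrase) and Pax5 (a B cell transcription factor), and at most 2 of the secondary granule genes Camp, Ngp and Ltf together. Of 8708 nuclei, 215 met the rule, which is 2.47% (exact 95% binomial interval 2.15 to 2.82%). They are called Mpo+ protease-free nuclei below, where protease-free means that 0 UMIs were captured and not that the RNA was absent. The data hold no measure of time, so whether these cells come before protease-expressing ones was not tested.

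The nuclei came from lineage-negative, Sca1+, ckit+ (LSK) marrow cells, the sorted fraction of mouse bone marrow that holds hematopoietic stem cells and multipotent progenitors. The labels name T58A mice, which carry a point mutation of MYC, and WT littermates, with 2 RNA and 2 chromatin accessibility samples per genotype from the 10x multiome assay, and give no age. Each replicate pooled the LSK cells of 2 mice per genotype. The RNA table marks nuclei with 4 barcode suffixes, called sets 1 to 4 here, and nothing in it ties a set to T58A, to WT or to a replicate. Its name gives T58A and no WT, so whether any of the nuclei described here are WT is not known. The genotypes were therefore not compared, no set is called a replicate, the whole table counts as 1 sample, and no test was made. The intervals given are exact 95% intervals of the counts and cover counting error only.

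Sets 1 to 4 gave 79, 14, 46 and 76 Mpo+ protease-free nuclei, or 2.63%, 1.94%, 1.67% and 3.41% of the nuclei of each set. Their UMIs summed to 1318558, and the median nucleus had 5393, against 4147.5 in the whole table. Mitochondrial genes took 23.7%, 12.2%, 25.1% and 8.43% of their UMIs in sets 1 to 4, so sets 1 and 3 stood apart from sets 2 and 4, as they did over all nuclei (24.6%, 9.98%, 24.2% and 9.22%). Set 2 contributed only 14 nuclei and 108695 UMIs. Over the table, 36 barcode sequences occurred in 2 sets, and 2 of the Mpo+ protease-free nuclei had such a barcode.

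Of 1467 nuclei with at least 4 Mpo UMIs, 307 had no UMI of the 4 protease genes. The condition on Dntt then removed 80, that on Car1 9, and those on Il7r, Pax5 and the secondary granule genes 1 each. Mpo was low in most of those left: 71 nuclei had 4 UMIs, 49 had 5 and 34 had 6, with a median of 5 and a maximum of 23. Mpo UMIs also occurred in nuclei of other lineages, which bears on how much of a low count is free RNA: 4.24% of 118 nuclei with at least 2 Pax5 UMIs (exact interval 1.39 to 9.61%; median 5256.5 UMIs) and 2.31% of 389 nuclei with at least 4 Car1 UMIs (interval 1.06 to 4.35%; median 9753 UMIs) had 4 or more Mpo UMIs. At least 1 Mpo UMI was seen in 27.1% and 29.0% of those nuclei. Of 42 nuclei with at least 20 Igha UMIs, an antibody gene of plasma cells, 4.76% had 4 or more (interval 0.582 to 16.2%). The shares were higher among nuclei with lymphoid genes: 13.5% of 539 nuclei with at least 4 Dntt UMIs (interval 10.8 to 16.7%) and 9.55% of 335 with at least 2 Il7r UMIs (interval 6.63 to 13.2%) had 4 or more, and 58.1% and 47.5% had at least 1. Mpo counts of 4 or more were thus found in each of these 5 groups.

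Markers of other lineages were present to different degrees in the Mpo+ protease-free nuclei. The 11 erythroid markers summed to 164 counts per 1000000 UMIs (CPM), against 121 CPM in protease nuclei and 201 CPM in stem nuclei, the groups defined below. Of the 11, only the transcription factor genes Gata1 and Klf1 had 0 UMIs, where a count of 0 allows up to 2.28 CPM. Of 8 eosinophil markers 6 were at 0, the granule genes Epx and Prg2 among them, and the list summed to 3.03 CPM. Of 8 T and NK cell markers 5 were at 0, the T cell receptor component gene Cd3e among them, and the list summed to 14.4 CPM, against 56.8 CPM in protease nuclei and 11.3 CPM in stem nuclei. Of the 8 mast cell and basophil markers, Cpa3 (mast cell carboxypeptidase) stood at 40.2 CPM, with 10.9, 18.4, 49.05 and 58.8 CPM in sets 1 to 4, against 24.5 CPM in protease nuclei and 7.54 CPM in stem nuclei. The list summed to 99.4 CPM in the Mpo+ protease-free nuclei, against 104 CPM in protease nuclei and 14.9 CPM in stem nuclei, with 2 of the 8 genes at 0. Prss34, a basophil protease, had 29 UMIs that lay in 4 of the 215 nuclei. The part of these nuclei in the other results was not tested. The 6 plasma cell markers, immunoglobulin genes in the main, summed to 406, 73.6, 1007 and 29.4 CPM in sets 1 to 4 of the Mpo+ protease-free nuclei, so their level differed widely between sets; over the table it was 334 CPM, against 266 CPM in protease nuclei and 582 CPM in stem nuclei. The 12 lymphoid progenitor markers summed to 469 CPM, against 290 CPM in protease nuclei and 419 CPM in stem nuclei. The kit receptor gene Kit, one of the sort markers, stood at 538 CPM.

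The groups set beside them were chosen by the same kind of rule. Protease nuclei (582) had at least 4 Mpo UMIs and at least 3 UMIs of the 4 protease genes. Stem nuclei (1147) had 0 Mpo UMIs and at least 4 UMIs of Hlf and Mecom together, transcription factors of long-term stem cells. Both kept the other conditions. The median depth was 7280 UMIs in protease nuclei and 3386 in stem nuclei, and mitochondrial genes took 16.3% of UMIs in the Mpo+ protease-free nuclei, 16.9% in protease nuclei and 16.5% in stem nuclei. By construction Mpo was at 0 in stem nuclei, and the Mpo+ protease-free nuclei stood at 1007 CPM, against 3511 CPM in protease nuclei. Elane, Prtn3, Ctsg, Ms4a3, Hlf and Mecom were likewise used to choose groups, so their differences are descriptions of the choice.

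The sequences upstream of 2 genes that the rule separates are shown because PU.1, the master regulator of myeloid genes, binds sites with a GAGGAA core. Each window is the 250 bases before the RefSeq start (GRCm38.p6), 5′ to 3′ on the gene's strand, at chr11:87793534-87793783 for Mpo (plus strand) and chr10:79886062-79886311 for Elane (plus strand). Capitals mark GAGGAA on the printed strand or its reverse complement.
Mpo: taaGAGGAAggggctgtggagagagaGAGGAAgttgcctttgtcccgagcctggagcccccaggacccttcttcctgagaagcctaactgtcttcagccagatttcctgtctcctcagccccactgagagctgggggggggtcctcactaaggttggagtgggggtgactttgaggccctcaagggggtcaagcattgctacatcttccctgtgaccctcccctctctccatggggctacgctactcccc
Elane: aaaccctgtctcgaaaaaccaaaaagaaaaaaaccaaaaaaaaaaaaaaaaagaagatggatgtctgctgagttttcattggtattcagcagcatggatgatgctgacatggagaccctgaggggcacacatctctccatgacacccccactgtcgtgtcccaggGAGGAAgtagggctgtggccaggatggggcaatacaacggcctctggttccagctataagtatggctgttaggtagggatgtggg
The Mpo window holds 2 matches and the Elane window 1. Prtn3 and Ctsg windows also hold the motif and that of Ms4a3 does not, so these letters do not separate Mpo from the proteases. Of 32851 RefSeq windows of the same length, 23.3% hold it, and a match is no evidence of binding.

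Over the table, protease UMIs were more frequent at each higher step of Mpo. With the other conditions kept and the protease condition dropped, the share of nuclei with 0 protease UMIs was 80.5% at 0 Mpo UMIs, 72.5% at 1, 54.8% at 2 to 3, 41.2% at 4 to 5, 26.5% at 6 to 9, 8.43% at 10 to 19 and 0.345% (1 of 290 nuclei) at 20 or more. Protease UMIs per Mpo UMI were 0.376 at 1 Mpo UMI, 0.287 at 2 to 3, 0.287 at 4 to 5, 0.290 at 6 to 9, 0.335 at 10 to 19 and 0.595 at 20 or more. Over the table the ratio was near level from 2 to 9 Mpo UMIs, but the sets went different ways. At 2 to 3, 4 to 5 and 6 to 9 Mpo UMIs it was 0.264, 0.290 and 0.281 in set 1, 0.343, 0.554 and 0.271 in set 2, 0.254, 0.297 and 0.373 in set 3 and 0.318, 0.214 and 0.243 in set 4. At 20 or more it was 0.362, 0.705, 0.434 and 0.574 in sets 1 to 4, the highest of these steps in sets 2, 3 and 4, whereas set 1 had 0.378 at 10 to 19. Median depth climbed over the same steps, with 2922.5 UMIs at 0 Mpo UMIs and 8962.5 at 20 or more, and its part in these shares was not tested.

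**Figure D1:**
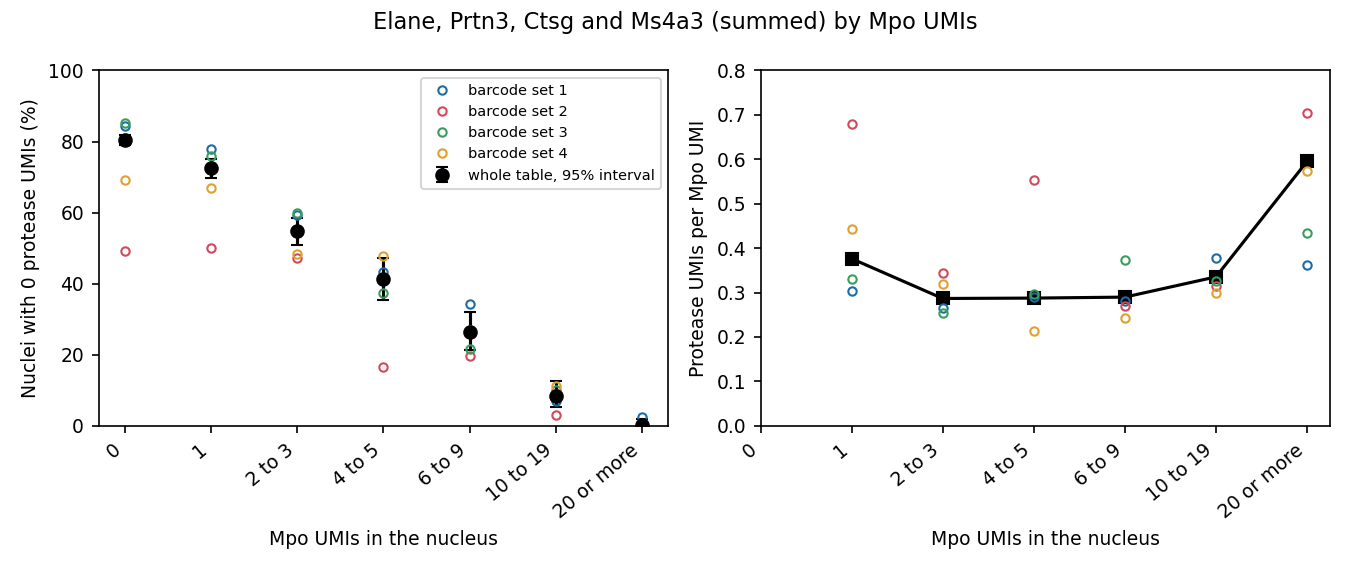
Left, the percentage of nuclei with 0 UMIs of Elane, Prtn3, Ctsg and Ms4a3 against Mpo UMIs per nucleus; right, protease UMIs per Mpo UMI over the same steps. Black marks are the whole table (left with exact 95% intervals) and open circles the 4 barcode sets. The share without protease UMIs is 80.5% at 0 Mpo UMIs and 0.345% at 20 or more.

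At the edge of the rule, Mpo stood at 1007 CPM in the 215 nuclei without protease UMIs, against 998, 1206 and 1366 CPM in those with 1, 2 and 3 (180, 137 and 93 nuclei). Flt3, the receptor tyrosine kinase of multipotent and lymphoid-primed progenitors, stood at 337 CPM with 0 protease UMIs and 302, 275 and 251 CPM with 1, 2 and 3. Calr, a calcium-binding chaperone of the endoplasmic reticulum (ER), stood at 253 CPM with 0 and at 337, 421 and 406 CPM with 1, 2 and 3. At the Mpo threshold, the 71 nuclei with 4 Mpo UMIs and the 152 with 3 had Mecom at 777 and 917 CPM, Atp8b4 at 512 and 362 CPM and Flt3 at 396 and 379 CPM. Flt3 was lower with each further protease UMI, and Calr was higher with 1 to 3 than with 0. Mecom and Hlf followed no order over 0, 1, 2 and 3 protease UMIs. Mecom stood at 628, 588, 684 and 504 CPM and Hlf at 288, 196, 304 and 162 CPM. Alas1, a heme synthesis gene, stood at 25.03, 32.2, 59.4 and 62.8 CPM.

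Against stem nuclei, 201 of 8794 measured genes (2.29%) were higher in the Mpo+ protease-free nuclei and 535 (6.08%) lower. Measured means at least 50 UMIs over both groups, and a called gene differed at least 1.5-fold in CPM plus 10 with the same direction in all 4 sets. The median log2 ratio over all measured genes was 0.02. Among genes with at least 200 UMIs over both groups, and outside the rule, the highest was Rab44, an atypical Rab GTPase known for its part in mast cell degranulation. It stood at 366, 92.00, 219 and 154 CPM in sets 1 to 4 of the Mpo+ protease-free nuclei, against 22.5, 9.77, 14.8 and 15.9 CPM in stem nuclei, 12.9-fold (interval 10.02 to 16.8) higher over the table. Every set of the Mpo+ protease-free nuclei lay above every set of stem nuclei, and the spread between sets was wide, with set 1 high and set 2 low. Atp8b4, which encodes a P4-type phospholipid-transporting ATPase, stood at 627, 579.6, 490.5 and 688 CPM, against 66.8, 48.8, 43.1 and 97.1 CPM in stem nuclei, 9.55-fold (interval 8.35 to 10.95) higher. The sets of the 2 groups did not overlap for this gene either.

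The other genes at the top against stem nuclei were BC035044 (366 CPM, against 65.2 CPM in stem nuclei), Fndc3b, a fibronectin type III domain gene (224 against 56.1 CPM), Parp8 of the ADP-ribosyltransferase family (1218 against 383 CPM), Plac8, which encodes a small cysteine-rich protein (163 against 45.5 CPM), and Gria3, a glutamate receptor subunit gene (528 against 196 CPM). All 5 were called. F13a1, the coagulation factor XIII A chain gene of monocytes and megakaryocytes, was high but not called: it stood at 205, 0, 155 and 112 CPM in sets 1 to 4 of the Mpo+ protease-free nuclei, against 11.7, 14.7, 2.84 and 8.75 CPM in stem nuclei. Set 2 had none among its 14 nuclei. Against all 8493 other nuclei, the leading genes found in at least 20% of the Mpo+ protease-free nuclei included Rab44, BC035044, Parp8, Crybg3, Fam117a, Zfp260, Hk3, Gm20342 and Slco3a1.

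**Figure D2:**
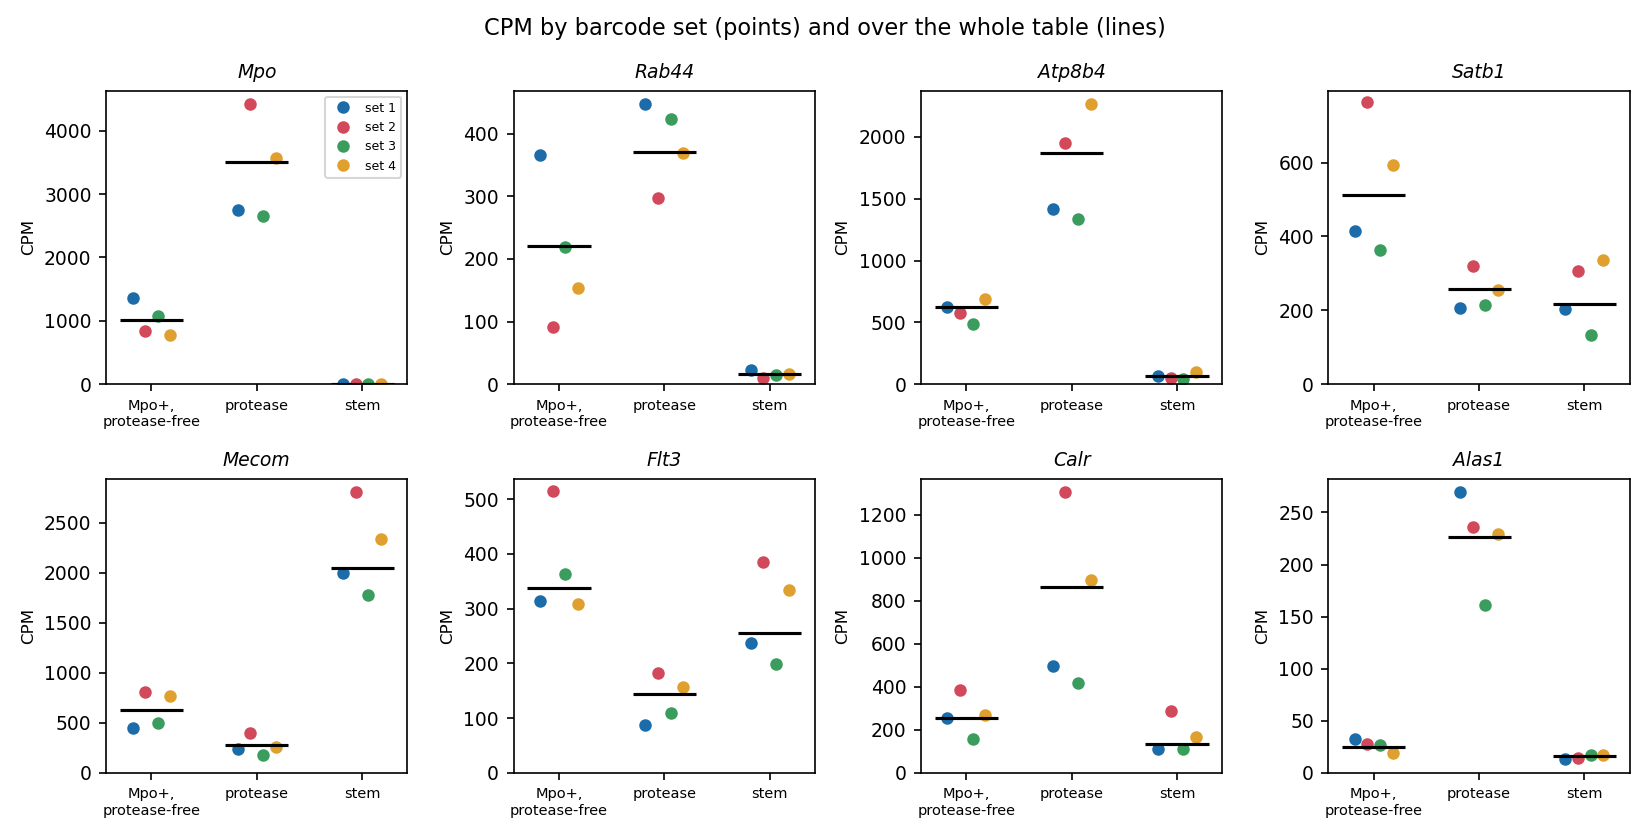
CPM of 8 genes, each panel with its own axis from 0, in Mpo+ protease-free nuclei, protease nuclei and stem nuclei. Points are barcode sets 1 to 4 and lines the whole table. Rab44 and Atp8b4 of the Mpo+ protease-free nuclei lie above stem nuclei in every set, while Alas1 lies near stem nuclei, with 25.03 CPM over the table.

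Stem cell markers were mostly lower than in stem nuclei. Of 12 measured, 9 were called lower, beside 6.08% of all measured genes, and none higher, with a median log2 ratio of -1.05; Hlf and Mecom are 2 of the 9, and for them this direction is fixed by the choice of stem nuclei. Genes expressed together with Hlf and Mecom may also be high in nuclei chosen by them. How much of the other differences from stem nuclei follows from the choice was not tested. Prdm16, a zinc finger regulator needed for stem cell maintenance and not itself used in the choice, stood at 27.3, 64.4, 41.5 and 48.4 CPM in sets 1 to 4, against 169, 117, 158 and 177 CPM in stem nuclei, 3.87-fold (interval 2.95 to 5.18) lower. The sets of the 2 groups did not overlap. Among megakaryocyte markers 4 of 7 measured were lower (6.08% of all genes) and none higher, with a median of -1.02: Vwf, the von Willebrand factor gene, stood at 7.58 CPM against 48.3 CPM in stem nuclei, and Rab27b, a Rab GTPase of platelet granules, at 8.34 against 79.8 CPM. Among genes with at least 200 UMIs over both groups the lowest included Il1rapl2 (11.4 against 207 CPM) and Dlg2, a synaptic scaffold gene (39.4 against 355 CPM).

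These nuclei were not free of stem cell transcripts. Against protease nuclei, 6 of 8 measured stem cell markers were higher, beside 2.97% of all measured genes, and none lower, with a median log2 ratio of 0.99. Meis1, a homeodomain gene of stem cells that took no part in either choice, stood at 698, 1178, 860.2 and 1323 CPM in sets 1 to 4, against 368, 644, 367 and 515 CPM in protease nuclei and 1798, 2701, 1641 and 2509.8 CPM in stem nuclei. In each set the Mpo+ protease-free nuclei lay between the other groups. The part of the choice by Hlf and Mecom in the Meis1 level of stem nuclei was not tested. Hlf stood at 288 CPM, against 96.7 CPM in protease nuclei, and Mecom at 628 CPM, against 280.2 CPM. Their higher levels in stem nuclei (814 and 2042 CPM) follow from the choice of those nuclei.

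Genes of multipotent progenitors were high. Of 10 measured markers, 6 were higher than in stem nuclei and none lower (median 0.81), where 2.29% of all measured genes were higher. Against protease nuclei 3 were higher and none lower (median 0.45), where 2.97% of all were higher. Satb1, a chromatin organizer of lymphoid-competent progenitors, was in both counts, at 415, 764, 362 and 593 CPM in sets 1 to 4, against 206, 319, 214 and 256 CPM in protease nuclei and 204, 308, 133 and 336 CPM in stem nuclei. Flt3 stood at 314, 515, 362 and 308 CPM, against 86.8, 182, 109 and 156 CPM in protease nuclei, 2.35-fold (interval 2.08 to 2.65) higher. Its 236, 386, 199 and 334 CPM in stem nuclei overlapped the Mpo+ protease-free nuclei, and it was not called against them. Cd48, the SLAM-family gene absent from long-term stem cells, stood at 57.3, 73.6, 37.7 and 104 CPM, against 30.3, 34.2, 15.9 and 31.8 CPM in stem nuclei. Cd48 was close to protease nuclei, where it stood at 73.7 CPM over the table. Of 7 measured lymphoid progenitor markers, 3 were higher than in protease nuclei (Arpp21, Fgf13 and Ighm) and none lower, with a median of 0.44. The share over all measured genes was 2.97%. Ighm changed sign when 1 protease UMI was enough for protease nuclei. Against stem nuclei 1 of 8 was higher (Fgf13) and none lower, beside 2.29% of all genes higher.

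Of the myeloid transcription factors, 2 of 10 measured were higher than in stem nuclei and 2 lower, where 2.29% and 6.08% of all genes were. Irf8, which directs monocyte and dendritic cell fate, stood at 120.0, 46.00, 117 and 72.6 CPM, against 13.99, 14.7, 13.1 and 25.5 CPM in stem nuclei, 5.49-fold (interval 4.09 to 7.41) higher. Zeb2, a zinc finger factor of myeloid cells, stood at 1152 against 662 CPM. Gata2 (54.6 against 136 CPM) and Nfe2 (22.8 against 41.02 CPM), factors of stem, mast and megakaryocyte cells, were lower. Against protease nuclei none of 13 was called in either direction. Cebpe, the factor of late granulocyte genes, was at 0 in the Mpo+ protease-free nuclei and at 5.70 CPM in protease nuclei. Cebpa, the factor that opens the granulocyte-monocyte lineage, stood at 4.55 CPM, against 11.2 CPM in protease nuclei and 1.55 CPM in stem nuclei, from few UMIs in this nuclear RNA. Gfi1, a transcriptional repressor gene of the granulocyte side, stood at 15.9 CPM, against 36.7 CPM in protease nuclei, and was not called.

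Some monocyte-side genes were higher than in stem nuclei. Of 8 measured monocyte and dendritic markers 3 were higher (Irf8, Ly86 and Ms4a6c) and 1 lower (Cd74), with a median of 0.67, where 2.29% and 6.08% of all measured genes were called in those directions. The median rested on few genes and moved with the sets: set medians ran from -0.28 to 1.26, and it was 1.37 without set 3 and 1.58 without set 4. Of 6 measured granulocyte-side markers none was called, with a median of -0.14 that was 0.05 without set 1. Against protease nuclei all 11 measured monocyte and dendritic markers had a log2 ratio below 0. Of these, 3 were called lower (median -0.39, set medians from -0.74 to 0.18), beside 3.65% of all measured genes. Of 8 measured granulocyte-side markers 3 were lower than in protease nuclei and none higher (median -0.41), with 4 ratios above 0 and 4 below. Ly86, a surface protein gene of myeloid and B cells, stood at 56.1 CPM, against 7.98 CPM in stem nuclei. Csf1r, the receptor for macrophage colony-stimulating factor, stood at 30.01, 55.2, 15.1 and 25.9 CPM, against 2.33, 0, 0 and 1.59 CPM in stem nuclei; it fell short of the UMI minimum in that comparison. Csf3r, the granulocyte colony-stimulating factor receptor gene, stood at 139 against 105 CPM and was not called. With every nucleus thinned to 2000 UMIs, Irf8 was seen in 15.7% of 210 Mpo+ protease-free nuclei, 17.8% of 573 protease nuclei and 1.77% of 1016 stem nuclei (32.6%, 38.3% and 3.66% without thinning). The stem nuclei were chosen by Hlf and Mecom and do not stand for all nuclei without Mpo UMIs, whose Irf8 level is given below.

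Among cytokine receptors, Il6ra, the interleukin-6 receptor gene, stood at 106, 82.8, 86.8 and 95.1 CPM in sets 1 to 4, against 31.9, 53.7, 36.3 and 56.5 CPM in stem nuclei, 2.30-fold (interval 1.82 to 2.90) higher, and it was the 1 gene of 11 called higher, beside 2.29% of all genes. Against protease nuclei 1 of 12 was higher (Flt3) and 1 lower, where 2.97% and 3.65% of all genes were: Ifngr1, the interferon-gamma receptor gene, at 49.3 CPM against 126 CPM. Of 10 adhesion and homing genes, 4 were higher than in stem nuclei (Selplg, Itgal and Cxcr4 among them), where 2.29% of all genes were, and none lower, with a median of 0.54; none was called against protease nuclei. Cxcr4, the receptor for the marrow chemokine CXCL12, stood at 41.7 CPM, against 55.95 CPM in protease nuclei and 23.7 CPM in stem nuclei.

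Against protease nuclei, 260 of 8746 measured genes (2.97%) were higher in the Mpo+ protease-free nuclei and 319 (3.65%) lower, with a median log2 ratio over all genes of 0.01. These counts moved with the sets: 411 were higher without set 2, and 515 were higher and 609 lower without sets 1 and 3. Prtn3, Elane, Ctsg and Ms4a3 are at 0 in the Mpo+ protease-free nuclei by the rule, and stood at 875, 602, 442 and 145 CPM in protease nuclei. Among genes with at least 200 UMIs over both groups, and outside the rule, the lowest was Alas1, which encodes the first enzyme of heme synthesis and so of the cofactor of myeloperoxidase. Alas1 stood at 32.7, 27.6, 26.4 and 19.02 CPM in sets 1 to 4, against 269, 236, 161 and 229 CPM in protease nuclei, 9.04-fold (interval 6.39 to 13.2) lower, with no overlap between sets. In stem nuclei it stood at 13.2, 14.7, 17.03 and 17.5 CPM. Alas1 was the only heme synthesis gene called of 8 measured, beside 3.65% of all measured genes called lower. Of 6 heme synthesis genes measured against stem nuclei, none was called.

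The next lowest genes against protease nuclei were Sgms2, a sphingomyelin synthase gene with 1 UMI in the Mpo+ protease-free nuclei (0.758 against 60.8 CPM), Gda, the guanine deaminase gene (8.34 against 105 CPM), Ncam1, an adhesion molecule gene (5.31 against 74.3 CPM), Chd7, a chromatin remodeller gene (8.34 against 89.1 CPM), and Ly6c2, a monocyte surface antigen gene (6.83 against 77.1 CPM). The Sgms2 ratio rests on that 1 UMI, at 80.2-fold (interval 14.3 to 3175). Chd7 and Gda were also lower in the Mpo+ protease-free nuclei than in stem nuclei, where they stood at 19.1 and 29.7 CPM, though only Gda was called. The highest were Tox, an HMG-box factor gene (91.01 against 21.7 CPM), Gimap6, a GTPase gene of lymphoid and stem cells (121 against 33.6 CPM), Egr1, an immediate early zinc finger gene (291 against 92.9 CPM), and Pcdh7, a protocadherin gene (165 against 54.5 CPM). Each of these 4 was lower in the Mpo+ protease-free nuclei than in stem nuclei, at 265, 221, 498 and 357 CPM.

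Granule and lysosome genes that the rule did not use were low along with the 4 it did. Of 18 measured, 9 were lower than in protease nuclei, beside 3.65% of all measured genes, and none higher. The median was -0.86, with set medians from -1.44 to -0.17. Prss57, neutrophil serine protease 4, had 2 UMIs in the Mpo+ protease-free nuclei and stood at 1.52 CPM, against 47.7 CPM in protease nuclei, 31.5-fold (interval 8.61 to 261) lower. Cst7, the inhibitor cystatin F, stood at 4.55 against 35.3 CPM, Nkg7 at 12.9 against 55.3 CPM, Cd63, a granule membrane tetraspanin gene, at 37.9 against 90.8 CPM, and Ctsz, the cathepsin Z gene, at 34.9 against 79.4 CPM. Srgn, the serglycin gene whose proteoglycan packs granule proteases, stood at 578 against 565 CPM and was not called. Ctsc, which encodes the cathepsin C that activates the serine proteases, stood at 28.1 against 39.7 CPM and was not called either. Hp, the haptoglobin gene of the granulocyte-side list, had 1 UMI in the Mpo+ protease-free nuclei (0.758 against 43.7 CPM).

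Of the granule and lysosome list only Rab44 and Calr were higher than in stem nuclei, of 16 measured (median 0.21; 2.29% of all genes were higher). Rab44 was also lower than in protease nuclei, where it stood at 447, 297, 423 and 369 CPM in sets 1 to 4, so the Mpo+ protease-free nuclei lay between the other groups over the table. Of 6 measured genes of the NADPH oxidase, the superoxide-producing enzyme of phagocytes, 3 were lower than in protease nuclei and none higher (median -0.77, set medians from -1.06 to -0.17), where 3.65% of all measured genes were lower. Cybb, its catalytic subunit gene, stood at 3.03 against 17.9 CPM, Cyba, its partner subunit gene, at 23.5 against 50.04 CPM, and Rac2, its GTPase gene, at 20.5 against 42.4 CPM. None of 5 was called against stem nuclei.

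ER folding and secretion genes were low. All 22 measured genes had a log2 ratio below 0 against protease nuclei, 16 were called lower, beside 3.65% of all measured genes, none was higher, and the median was -1.03, with set medians from -1.22 to -0.38. Calr stood at 256, 386, 158 and 269.8 CPM in sets 1 to 4, against 497, 1306, 419 and 898 CPM in protease nuclei, 3.41-fold (interval 3.05 to 3.82) lower. In every set the Mpo+ protease-free nuclei were lower, and sets 2 and 4 were higher than sets 1 and 3 in both groups. Stem nuclei had 111, 288, 111 and 167 CPM, and Calr was 1.88-fold (interval 1.64 to 2.15) higher in the Mpo+ protease-free nuclei than in them. Hspa5, the ER chaperone BiP, stood at 562, 442, 343 and 444 CPM, against 592, 1162, 593 and 1174 CPM in protease nuclei, and the difference in set 1 was small. Sdf2l1, an ER chaperone component gene, stood at 4.55 against 33.1 CPM. Against stem nuclei 3 of 21 were higher (Calr, Pdia6 and P4hb, the last 2 disulfide isomerase genes), beside 2.29% of all genes, and none lower, with a median of 0.32.

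The ER stress response element (ERSE) is the promoter element through which the unfolded protein response is known to act on ER chaperone genes, so the windows of 2 such genes are shown. It was searched as CCAAT and CCACG set 9 bases apart, on either strand, in the 250 bases before each RefSeq start. The windows are at chr8:84846932-84847181 (minus strand) for Calr and chr2:34771840-34772089 (plus strand) for Hspa5, GRCm38.p6, 5′ to 3′ on the gene's strand, and capitals mark the element.
Calr: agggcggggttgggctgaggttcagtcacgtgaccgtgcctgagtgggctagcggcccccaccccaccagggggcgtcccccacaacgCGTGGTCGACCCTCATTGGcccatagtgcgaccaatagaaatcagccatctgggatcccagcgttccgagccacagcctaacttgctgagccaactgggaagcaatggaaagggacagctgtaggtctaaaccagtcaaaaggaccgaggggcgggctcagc
Hspa5: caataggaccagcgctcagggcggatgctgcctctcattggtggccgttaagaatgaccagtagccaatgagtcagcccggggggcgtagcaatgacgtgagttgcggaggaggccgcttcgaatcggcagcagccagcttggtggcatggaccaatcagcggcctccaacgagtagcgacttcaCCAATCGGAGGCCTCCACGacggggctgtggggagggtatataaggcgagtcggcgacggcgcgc
The element stands on the printed strand in Hspa5 and on the opposite strand in Calr. It was found in 37 of 32851 windows (0.113%), which belonged to 35 of 27025 genes (0.130%). Of the 18 list genes with a window, 7 held it (38.9%): Calr, Canx, Creld2, Dnajc3, Hsp90b1, Hspa5 and Pdia6. Of those 7, 6 were among the genes called lower than in protease nuclei, Creld2 being the exception at 15.9 against 30.2 CPM. Over the whole list 16 of 22 genes were called lower, beside 3.65% of all measured genes. Whether the element goes with the call was not tested. A match describes the letters and says nothing of a factor's binding in these cells.

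**Figure D3:**
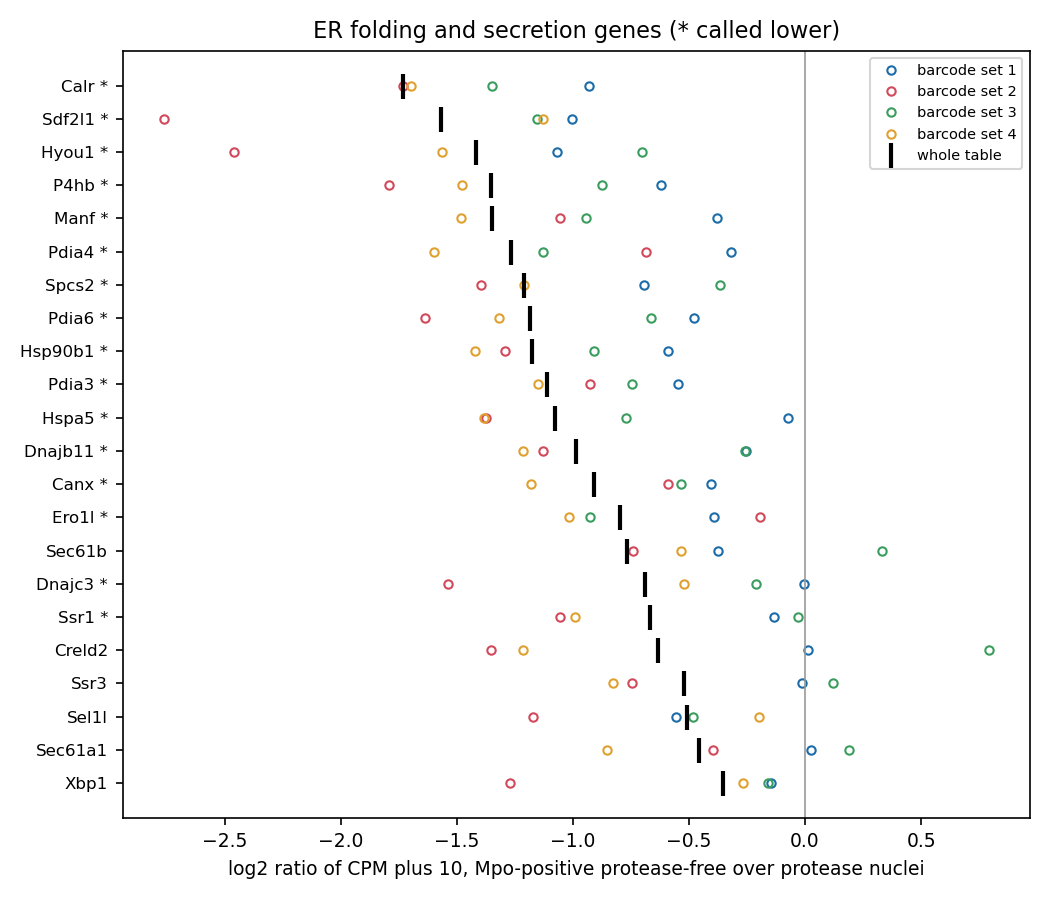
log2 ratio of CPM plus 10, Mpo+ protease-free nuclei over protease nuclei, for the 22 ER folding and secretion genes, in rows ordered by the ratio over the table (black bars). Circles are barcode sets 1 to 4, and an asterisk marks the 16 genes called lower. All black bars lie below 0, with Calr lowest at -1.73.

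Glycolysis genes were lower than in protease nuclei for 6 of 17 measured, beside 3.65% of all measured genes, and higher for none (median -0.40). Pgam1, phosphoglycerate mutase, stood at 30.3 CPM, against 69.7 CPM in protease nuclei and 14.6 CPM in stem nuclei, and Hk3, the hexokinase gene of myeloid cells, at 74.3, against 126 CPM in protease nuclei and 25.1 CPM in stem nuclei. Both were called in both comparisons. Immediate early genes were higher than in protease nuclei for 9 of 16 and lower for none (median 0.60), where 2.97% of all genes were higher, and lower than in stem nuclei for 3 of 15 (median -0.16), where 6.08% of all were lower. Egr1 stood at 153, 138, 396 and 359.7 CPM in sets 1 to 4, against 83.1, 48.8, 159.7 and 99.7 CPM in protease nuclei, and Nr4a1, a nuclear receptor gene, at 24.6, 18.4, 90.5 and 77.8 against 6.29, 6.002, 33.2 and 15.04 CPM. Sets 3 and 4 were higher than sets 1 and 2 for both genes in the Mpo+ protease-free nuclei.

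MYC is the gene mutated in this series. Myc stood at 109, 64.4, 67.9 and 53.6 CPM in sets 1 to 4 of the Mpo+ protease-free nuclei, against 51.6, 69.8, 31.9 and 57.4 CPM in protease nuclei and 48.2, 48.8, 37.5 and 56.5 CPM in stem nuclei. The values overlapped and no call was made in either comparison. The paralog Mycn, used by stem cells, had 2 UMIs (1.52 CPM) against 17.1 CPM in stem nuclei. The Mycn ratio was 11.3-fold (interval 3.01 to 94.6). Mycn was the only gene of 9 MYC and partner genes called, beside 6.08% of all measured genes called lower. None of 23 and of 25 measured ribosome biogenesis genes, a known class of MYC targets, was called in the comparisons with stem and with protease nuclei. Bcl2, the survival gene, stood at 608, 598, 532 and 548 CPM, against 288, 225, 271 and 255 CPM in stem nuclei. It was 2.10-fold (interval 1.91 to 2.30) higher. Bcl2 was the 1 of 7 survival and death genes called there, beside 2.29% of all measured genes called higher. Its 514 CPM in protease nuclei gave no call. Of 18 interferon response genes 3 were lower than in stem nuclei (6.08% of all genes), and of 13 2 were higher than in protease nuclei (2.97% of all genes), Parp14 and Eif2ak2.

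Replication genes were higher than in stem nuclei for 9 of 43 S phase genes, beside 2.29% of all measured genes, and lower for none (median 0.41), Rrm2, a ribonucleotide reductase subunit gene, standing at 25.8 against 8.87 CPM and Hells, a chromatin remodeller gene, at 291 against 156 CPM. Of 49 G2/M genes none was called, with a median of 0.30 and set medians from -0.02 to 0.57. Against protease nuclei 2 of 43 S phase genes were higher and 1 lower, and 3 of 51 G2/M genes lower (median -0.28, set medians from -1.03 to 0.09), beside 2.97% higher and 3.65% lower of all genes. Thinned to 2000 UMIs, the Mpo+ protease-free nuclei held a median of 6 S phase and 7 G2/M genes, against 6 and 9 in protease nuclei and 3 and 4 in stem nuclei. The order for G2/M genes differed between sets. Their medians in sets 1 to 4 were 8.5, 4, 6 and 7, against 8, 9, 6 and 10 in protease nuclei and 4.5, 5, 4 and 4 in stem nuclei. In set 2 the Mpo+ protease-free nuclei were thus below stem nuclei. At least 2 G2/M genes were seen in 96.7% of the Mpo+ protease-free nuclei (99.5% without thinning), 98.4% of protease nuclei (100%) and 91.4% of stem nuclei (95.1%). The thinning left out 5 shallower Mpo+ protease-free nuclei, 9 protease nuclei and 131 stem nuclei. No phase is assigned to a nucleus from these counts, and the part of free RNA in them was not tested.

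**Figure D4:**
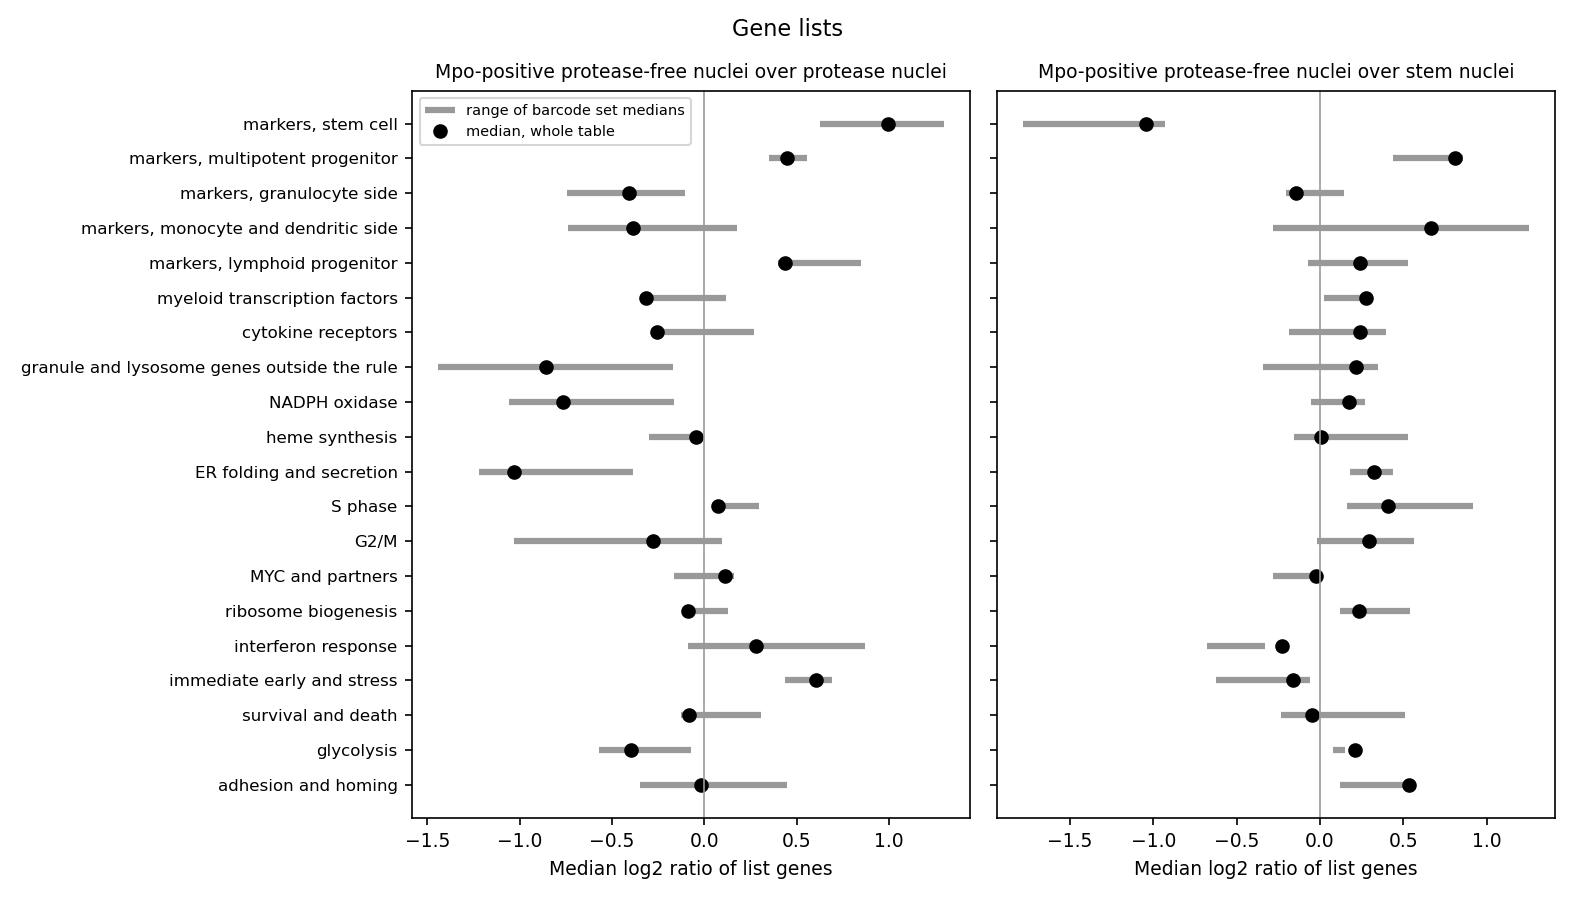
Median log2 ratio of CPM plus 10 for 20 gene lists, left against protease nuclei and right against stem nuclei. Black points are the whole table and grey bars span the medians of the 4 barcode sets. Stem cell markers lie at 0.99 on the left and -1.05 on the right, and ER folding genes at -1.03 and 0.32.

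Levels were also followed over Mpo UMIs among all nuclei without protease UMIs that met the other conditions: 2431, 776, 362, 120, 72 and 23 nuclei with 0, 1, 2 to 3, 4 to 5, 6 to 9 and 10 or more Mpo UMIs. The last 3 steps are the Mpo+ protease-free nuclei. Median depth was 2737, 3371.5, 4281.5, 4781.5, 5710 and 6384 UMIs over the steps. Mecom stood at 1279, 1068, 931, 746, 570.1 and 318 CPM, lower at each step, against 280.2 CPM in protease nuclei. Flt3 stood at 251, 297, 348, 367, 332 and 239.6 CPM, highest at 4 to 5 Mpo UMIs, and 144 CPM in protease nuclei. Satb1 stood at 230.5, 322, 409.8, 509, 492 and 568 CPM, against 258 CPM in protease nuclei. Flt3 and Satb1 were thus higher in each of the last 3 steps than in protease nuclei.

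Myeloid genes climbed at different points. Atp8b4 stood at 117, 177, 341, 543, 612 and 953 CPM over the 6 steps, and 1872 CPM in protease nuclei. Rab44 stood at 29.8, 62.4, 125, 203, 212 and 312 CPM, and 371 CPM in protease nuclei. Both were higher at every step. Calr stood at 135, 159, 199.8, 214, 289.5 and 312 CPM, against 863 CPM in protease nuclei, well above the last step. Alas1 stood at 13.5, 14.4, 23.8, 15.9, 17.8 and 78.01 CPM, near level up to 9 Mpo UMIs and higher in the 23 nuclei of the last step, where it rests on 14 UMIs, against 226 CPM in protease nuclei. Irf8 stood at 78.2, 67.9, 70.7, 107, 77.9 and 72.4 CPM and followed no order; it was as high without Mpo UMIs as with 6 to 9, which the stem nuclei, chosen by Hlf and Mecom, do not show.

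**Figure D5:**
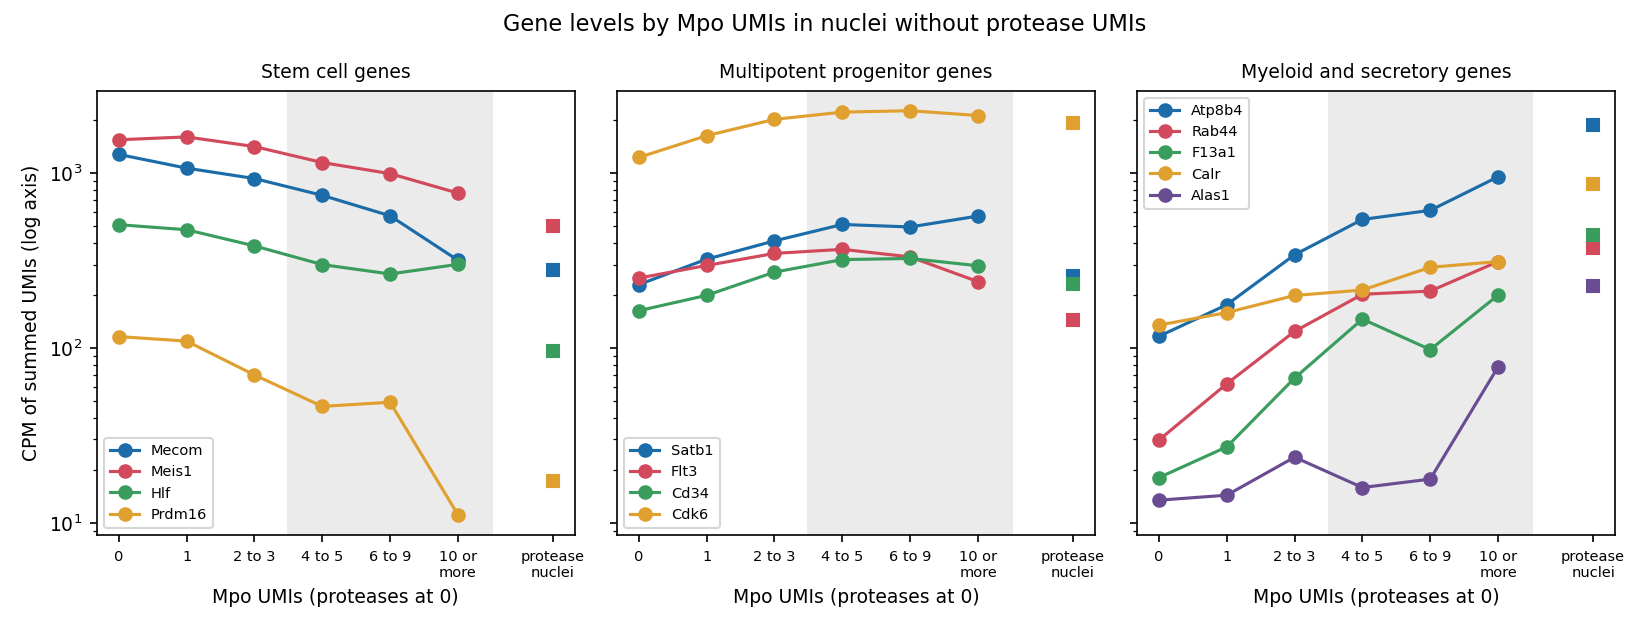
CPM of summed UMIs on a log axis against Mpo UMIs per nucleus, in nuclei with 0 protease UMIs, for stem cell genes (left), multipotent progenitor genes (middle) and myeloid and secretory genes (right). The shaded steps are the Mpo+ protease-free nuclei and the squares are protease nuclei. Mecom is lower at each step, while Atp8b4 and Rab44 are higher at each.

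Likeness to Mpo was measured as Spearman's correlation of a gene's CPM with Mpo over those 6 steps, which share one table and differ in depth. Of 7330 genes with enough UMIs, 138 had a correlation of 1, and the 10 with the largest ratio of last to first step included Rab44, Atp8b4, BC035044, F630028O10Rik, Fndc3b, Clec12a, Gria3, Gm47071 and Gm2629. Clec12a, a C-type lectin receptor gene of myeloid cells, stood at 19.4, 21.8, 33.4, 53.6, 60.1 and 94.7 CPM over the steps. Ties at 1 are many because there are only 6 steps, so the order within the 138 rests on size.

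The Mpo+ protease-free nuclei differed among themselves in how much stem cell RNA they held. By Hlf and Mecom UMIs together, 61 had none, 60 had 1 to 3 and 94 had 4 or more. Median depth was 4481, 4519 and 6649.5 UMIs and the mitochondrial share 22.5%, 18.7% and 12.7%, so depth and sets moved with this division, and their part in the values was not tested: set 1 gave 30, 26 and 23 of the nuclei and set 4 gave 15, 15 and 46. Over these 3 classes Mpo stood at 1316, 1196 and 795 CPM, while the median was 5 Mpo UMIs per nucleus in each class. Mpo was used to choose these nuclei, with a minimum in raw UMIs, so its CPM also depends on depth. Meis1 stood at 395, 821 and 1414 CPM. F13a1 stood at 412, 119 and 30.97 CPM, Irf8 at 196, 109 and 42.2 CPM and Csf1r at 53.98, 28.9 and 15.5 CPM. Atp8b4 stood at 958, 664 and 465 CPM, whereas Flt3 stood at 385, 292 and 338 CPM and Csf3r at 101, 128 and 159 CPM. F13a1, Irf8 and Csf1r were each highest in nuclei with no Hlf or Mecom UMI. The counting intervals of the first and last class did not overlap for F13a1 (342 to 491 and 19.4 to 46.9 CPM) or Irf8 (149 to 253 and 28.5 to 60.3 CPM), while those of Flt3 did (317 to 462 and 296 to 383 CPM). These intervals cover counting error only and take no account of differences between nuclei or sets.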

How the data were processed

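Nuclei of sorted LSK marrow cells were profiled with the 10x multiome assay, and the RNA table was used; the chromatin accessibility samples were not analysed here. The submitters' processing notes name Cell Ranger ARC, Seurat, Signac and mm10; their versions, the annotation and any nucleus filter go unstated in the sources used here. The authors deposited raw UMI counts of 32285 genes in each of 8708 nuclei. The table has 0 unused columns of per-sample values.

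All nuclei were kept and no doublet caller was run; the 5% of nuclei with most UMIs per set were left out as an alternative. Counts were summed per group, as deposited, and scaled to CPM over all UMIs of the group. log2 ratios added 10 CPM. Genes with at least 50 UMIs over both groups were measured, so list counts cover the measured members only. No count model was fitted, since the table is 1 sample with no map from nuclei to samples. The calling step was tested on simulated data. Intervals are exact Poisson or Clopper-Pearson at 95%, and UMIs of 1 nucleus are not independent of each other.

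The members and the 28 gene lists were chosen with earlier results of these data known. Named genes are those of the rule, every member of 5 lists (myeloid transcription factors, cytokine receptors, granule and lysosome, NADPH oxidase, heme synthesis), the 2 farthest of each other list, and the 10 at each end of a comparison (at least 200 UMIs) or of the ranking against other nuclei and by likeness to Mpo. Mitochondrially encoded and sex-linked genes (Xist and Y genes among them) were left out of these rankings. Others (Meis1, Hspa5, the called members of short lists, genes with the ERSE and marker genes at 0) were named after their values were seen. Results on some genes that the rule names are not reported here. Upstream windows are RefSeq's (GRCm38.p6). Python 3.11.15, numpy 2.4.6, pandas 2.3.3, scipy 1.17.1 and matplotlib 3.10.9 were used.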

Additional observations from a re-analysis of the deposited data

How the results depend on the processing

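The alternatives scaled to non-mitochondrial UMIs, left out barcode sets or the deepest nuclei, weighted sets equally, restricted depth to 4000 to 10000 UMIs, and changed the UMI minimum, the fold and the thresholds of the groups. Genes higher than in stem nuclei numbered 229 to 262 without 1 set, against 201, and lower 472 to 763, against 535; genes higher than in protease nuclei numbered 178 to 411, against 260, and lower 269 to 450, against 319. The 411 came without set 2, which has 14 of the 215 nuclei. Without sets 1 and 3 there were 515 higher and 609 lower than in protease nuclei. With sets weighted equally 847 genes were lower than in stem nuclei. A minimum of 200 UMIs gave 116 higher and 281 lower than in stem nuclei, and 166 higher and 205 lower than in protease nuclei. At 2-fold these were 59, 172, 57 and 119. With 1 protease UMI enough for protease nuclei, 101 genes were higher in the Mpo+ protease-free nuclei. Their number was 367 with at least 3 Mpo UMIs, 95 with at least 6 and 395 with 1 protease UMI allowed, against 215. The share with at least 2 G2/M genes was 90.1% at 1500 UMIs and 100% at 3000, and 90.5% when 3 genes were needed at 2000, against 96.7%. Over 15 alternatives, the 208 gene values gave 2297 values within the spread of the sets, 100 outside it and 1 change of sign of a called gene: Ighm, an immunoglobulin gene, had a log2 ratio of 1.08 over protease nuclei and -0.93 with 1 protease UMI enough for these. With genes that were not called included, 41 of the 208 changed sign under at least 1 alternative. Il3ra had 0.24 over stem nuclei and -0.26 without set 1, and Igha 0.09 over protease nuclei and -0.74 without set 1. The 42 list medians gave 484 within and 49 outside; 13 changed sign, each at most 0.28 in size to begin with. The granulocyte side had -0.14 against stem nuclei and 0.05 without set 1, and survival and death genes -0.08 against protease nuclei and 0.20 without set 2. The causes were not tested. No paired analysis was possible because the table's columns carry no replicate number. Set 2, with 14 of the nuclei, and the median of 5393 UMIs per nucleus limit how firmly a low gene can be called.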
